A study of Danio rerio with 8 samples.

Results

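The 5 genes described here encode lectins and secretory proteins of zebrafish eosinophils: *eslec*, *itln1*, *agr2*, *pdia2* and *muc2.1*. They were chosen by name, and all 5 were present among the 30838 genes listed in both expression tables, where *eslec* is listed as *si:dkeyp-75b4.10*. Their levels were followed in 8 bulk RNA-Seq libraries, each from about 500 eGFP+ cells sorted from ground whole larvae at 7 days post fertilization (dpf). The groups were *cebp1*-/- and *cebp1*+/+ in a table of 4 libraries, and *cebpb*-/- and *cebpb*+/+ in another, with 2 libraries per genotype. Every larva was of the AB strain and carried Tg(eslec:eGFP), in the controls as well as in the mutants, and the study states that replicates were different pools of individuals. In the reporter, eGFP is driven by a cloned piece of the *eslec* promoter, so the sort itself selected cells in which that promoter was active, and *eslec* mRNA in the libraries is not independent of the gate. In bulk samples, fewer cells of a type and less RNA per cell cannot be told apart.

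*Eslec* encodes a C-type lectin, a carbohydrate-binding fold that in mammals is also found in the major basic protein of eosinophil granules. *Itln1* encodes an intelectin, a secreted lectin that in mammals binds glycans of microbes. *Agr2* and *pdia2* belong to the protein disulfide isomerase family of the endoplasmic reticulum, which helps secreted proteins to form their disulfide bonds, and in mice Agr2 is needed for the assembly of intestinal mucin. *Muc2.1* encodes a gel-forming mucin, the kind of large glycoprotein that makes up mucus. The study uses high *agr2* and *pdia2* to name an immature eosinophil stage, pre.Eos. *Gata2a*, a GATA transcription factor of the lineage, served as a gene to which the levels were related.

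All values are TPM, a unit that takes gene length into account and sums to the same total in every library. TPM do not keep the number of reads, so the depth is unknown and the values carry no counting interval. Genes above 0 made up 87.2% to 88.1% of all genes in the 4 libraries of the *cebp1* table and 39.3% to 50.3% in those of the other table, and the tables were normalized separately. *Cebp1* was listed at 0 in all 8 libraries, so its own mRNA could not check the *cebp1* labels, whereas *cebpb* had 2928 and 1480 TPM in *cebpb*-/- cells, against 6360 and 5716 TPM in *cebpb*+/+ cells. Mitochondrial genes took 24.7% to 29.1% of TPM in *cebp1*-/- and 23.1% to 25.4% in *cebp1*+/+ cells, and 6.11% to 6.2% in *cebpb*-/- and 4.70% to 5.19% in *cebpb*+/+ cells.

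All 5 genes were expressed in every library, in a steep order. *Eslec* ranked between 2 and 5 among all 30838 genes in each library, and once mitochondrial and microRNA genes were set aside it was the most abundant gene in 1 of the 2 *cebp1*+/+ libraries and in both *cebpb*+/+ libraries. It alone made up 73.2% to 84.3% of the TPM of the 5 genes. *Itln1* spanned 1323 to 2694 TPM over the 8 libraries, *agr2* 738 to 3359 TPM, *pdia2* 555 to 1682 TPM and *muc2.1* 113 to 274 TPM. *Muc2.1*, the lowest of the 5, still ranked between 241 and 753 among all genes. The middle of the order depended on the table and the genotype. *Itln1* was above *agr2* in all 4 libraries of the *cebp1* table and below it in all 4 of the *cebpb* table. *Pdia2* was above *agr2* in both *cebp1*-/- libraries and below it in the 6 other libraries. *Gata2a* exceeded *muc2.1* in all 8.

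**Figure D1:**
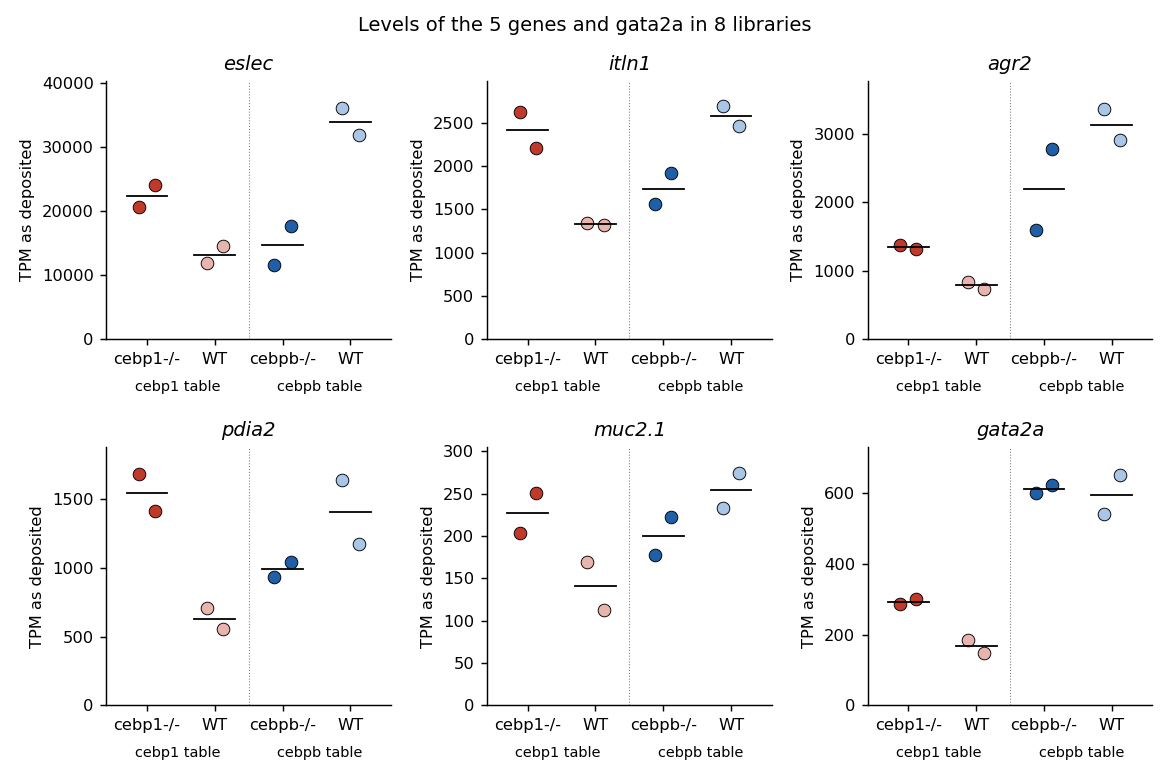
TPM as deposited (y axis, linear, from 0) of the 5 genes and *gata2a* in the 8 libraries. Points are libraries and lines are means of 2, and each of the 5 genes is higher in *cebp1*-/- and lower in *cebpb*-/- than in both of its wild type libraries, while *gata2a* overlaps in the *cebpb* table.

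The effect of *cebp1* loss on the lectins and secretory genes was read in the *cebp1* table. *Eslec* had 20720 and 24085 TPM in *cebp1*-/- cells, against 11840 and 14618 TPM in *cebp1*+/+ cells. *Itln1* had 2630 and 2214 TPM in *cebp1*-/- cells, against 1340 and 1323 TPM in *cebp1*+/+ cells. For both lectins the lower mutant library lay well above the higher wild type library. The disulfide isomerase gene *pdia2* had 1682 and 1410 TPM in *cebp1*-/- cells, against 705 and 555 TPM in *cebp1*+/+ cells. *Agr2* had 1374 and 1314 TPM in *cebp1*-/- cells, against 835 and 738 TPM in *cebp1*+/+ cells. *Muc2.1* had 203 and 251 TPM in *cebp1*-/- cells, against 170 and 113 TPM in *cebp1*+/+ cells. Both mutant libraries were thus above both wild type libraries for 5 of 5 genes, an arrangement found for 5.11% of the 25203 genes tested. Among the 875 genes that averaged 50 TPM or more in both tables, 16.7% had it together with the reverse in the *cebpb* table. Its own share among such abundant genes was not computed, but is no lower than that. The ratio of mean TPM, mutant over wild type, was 1.69 for *eslec*, 1.82 for *itln1*, 1.71 for *agr2*, 2.45 for *pdia2* and 1.61 for *muc2.1*. With 2 libraries against 2, the exact two-sided permutation test cannot go below p = 0.333, the value it gave for each of the 5 shares of TPM.

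The 5 genes were then tested with limma across all genes, after the libraries of a table were scaled to a common median ratio, on log2(scaled TPM + 1). All 5 rose in *cebp1*-/- cells at an adjusted p under 0.05, as did 1.28% of all genes tested and 23.2% of the 1045 genes that averaged 50 scaled TPM or more. *Pdia2* rose by 2.37 ± 0.25 on the log2 scale (SE, adjusted p = 0.0243, limma) and *itln1* by 1.93 ± 0.25 (adjusted p = 0.0257, limma). The values were 1.83 ± 0.23 for *eslec* and 1.84 ± 0.24 for *agr2* (SE, adjusted p = 0.0257 for both, limma), and 1.77 ± 0.28 for *muc2.1* (adjusted p = 0.0396, limma). The scaling added 1.07 to the log2 differences of abundant genes of this table, and less for low genes, where the added 1 TPM weighs. On TPM as deposited the same test gave 0.76 for *eslec* (adjusted p = 0.0685), 0.86 for *itln1* (0.07), 0.77 for *agr2* (0.0796), 1.30 for *pdia2* (0.0573) and 0.71 for *muc2.1* (0.143), none of which passed. The calls were also lost in limma fits that left out any of the 4 libraries, where no gene of the table passed.

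Among 875 genes that averaged 50 TPM or more in both tables, the deposited log2 difference of *pdia2* in *cebp1*-/- cells was exceeded by 5.83% of genes, and those of the 4 others by 15.4% to 21.9%. *Gata2a* itself had 286 and 301 TPM in *cebp1*-/- cells, against 185 and 148 TPM in *cebp1*+/+ cells, and its scaled log2 difference was 1.89 ± 0.27 (SE, adjusted p = 0.0304, limma). This value lay below those of *pdia2* and *itln1* and slightly above those of *agr2*, *eslec* and *muc2.1*.

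**Figure D2:**
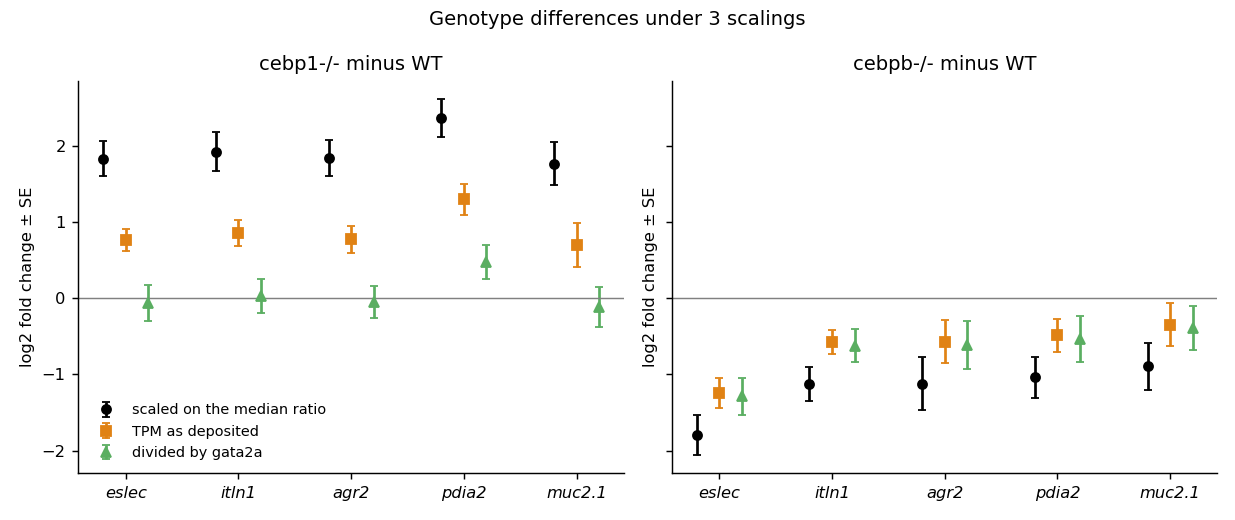
log2 fold change (mutant minus wild type, y axis) of the 5 genes with limma's SE (bars) under 3 scalings, with *cebp1*-/- on the left and *cebpb*-/- on the right. In *cebp1*-/- cells the values run between 1.77 and 2.37 when scaled on the median ratio and are near 0 for 4 of the 5 genes when divided by *gata2a*, while in *cebpb*-/- cells all are below 0 under each scaling.

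The same genes were lower in *cebpb*-/- cells. *Eslec* had 11658 and 17653 TPM in *cebpb*-/- cells, against 36139 and 31898 TPM in *cebpb*+/+ cells. The mean in mutant cells was 0.431 of that in wild type cells, the largest difference of the 5. *Itln1* had 1558 and 1919 TPM in *cebpb*-/- cells, against 2694 and 2466 TPM in *cebpb*+/+ cells. *Agr2* had 1596 and 2779 TPM in *cebpb*-/- cells, against 3359 and 2905 TPM in *cebpb*+/+ cells. The *agr2* libraries of the 2 genotypes did not overlap, but the higher mutant library lay close to the lower wild type library. *Pdia2* had 935 and 1044 TPM in *cebpb*-/- cells, against 1638 and 1171 TPM in *cebpb*+/+ cells. *Muc2.1* had 178 and 223 TPM in *cebpb*-/- cells, against 233 and 274 TPM in *cebpb*+/+ cells, and here too the nearest libraries of the genotypes were close. The ratios of means were 0.674 for *itln1*, 0.698 for *agr2*, 0.704 for *pdia2* and 0.789 for *muc2.1*.

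Both mutant libraries were below both wild type libraries for 5 of 5 genes, an arrangement that 15.4% of the 11478 genes of this table shared, and the exact permutation p was again 0.333 for each. Among the 875 genes of at least 50 TPM in both tables, 5.26% had a larger deposited fall than *eslec*. The falls of *itln1*, *agr2*, *pdia2* and *muc2.1* were exceeded by 19.7%, 20.1%, 25.4% and 34.6% of these genes. None of the 5 passed the limma test at an adjusted p under 0.05, and neither did any other gene (0% called). At an unadjusted p under 0.05, 704 genes were higher and 924 lower, 8.05% of genes tested for the lower side, and all 5 were among the lower. The study's own test, DESeq2 on counts, did call genes lower in *cebpb*-/- eosinophils, and the study reports *eslec* as raised by Cebpβ. The absence of calls holds for this test on TPM, and a fit of the same TPM with all 8 libraries called 668 genes. Why it differs from the study's test was not tested. The scaled log2 differences were -1.79 ± 0.27 for *eslec* (SE, adjusted p = 0.15, limma), -1.13 ± 0.22 for *itln1* (0.166), -1.12 ± 0.34 for *agr2* (0.264), -1.04 ± 0.27 for *pdia2* (0.222) and -0.89 ± 0.31 for *muc2.1* (0.305). The scaling added -0.55 to the log2 differences of abundant genes of this table, with smaller shifts for low genes. On TPM as deposited the differences of the 5 genes were -1.24, -0.58, -0.57, -0.49 and -0.35, in the same order. Leaving out 1 library at a time gave scaled values of -2.16 to -1.40 for *eslec*, -1.34 to -0.88 for *itln1*, -1.58 to -0.62 for *agr2*, -1.37 to -0.77 for *pdia2* and -1.12 to -0.63 for *muc2.1*. The *agr2* value of -0.62 was without *cebpb*-/- replicate 1. Fitted together with the *cebp1* table, as 8 libraries that share 1 estimate of the spread, *eslec* (adjusted p = 0.0182, limma) and *itln1* (adjusted p = 0.0346, limma) passed and the other 3 did not.

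Whether the effects of the 2 mutations differ was tested in that joint fit, as the difference of the mutant minus wild type differences. It was 3.63 ± 0.39 on the log2 scale for *eslec* (SE, adjusted p = 0.0022, limma), 3.41 ± 0.37 for *pdia2* (0.0022), 3.05 ± 0.34 for *itln1* (0.0023), 2.96 ± 0.43 for *agr2* (0.0057) and 2.66 ± 0.39 for *muc2.1* (0.0058). All 5 were higher, against 6.09% of the 11360 genes tested in both tables. The scaling raised this difference for every gene, and the share among abundant genes alone was not computed. Without scaling, the difference passed for *eslec* (2.01, adjusted p = 0.0148), *itln1* (1.43, 0.0168) and *pdia2* (1.79, 0.0237) and not for *agr2* (1.34, 0.0644) or *muc2.1* (1.05, 0.155). The tables share no libraries. Being above both wild type libraries in *cebp1*-/- and below both in *cebpb*-/- was an arrangement of all 5 genes, of 2.89% of the genes tested in both tables and of 16.7% of the 875 genes with at least 50 TPM.

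As a share of all TPM, the 5 genes together took 2.66% and 2.93% in *cebp1*-/- cells, against 1.49% and 1.73% in *cebp1*+/+ cells. They took 1.59% and 2.36% in *cebpb*-/- cells, against 4.41% and 3.87% in *cebpb*+/+ cells. *Eslec* alone accounted for 2.07% and 2.41% in *cebp1*-/- cells, against 1.18% and 1.46% in *cebp1*+/+ cells, and for 1.17% and 1.77% in *cebpb*-/- cells, against 3.61% and 3.19% in *cebpb*+/+ cells. The lowest share of the 5 in the *cebpb* table was thus in a mutant library and the highest in a wild type library, in reverse of the *cebp1* table.

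**Figure D3:**
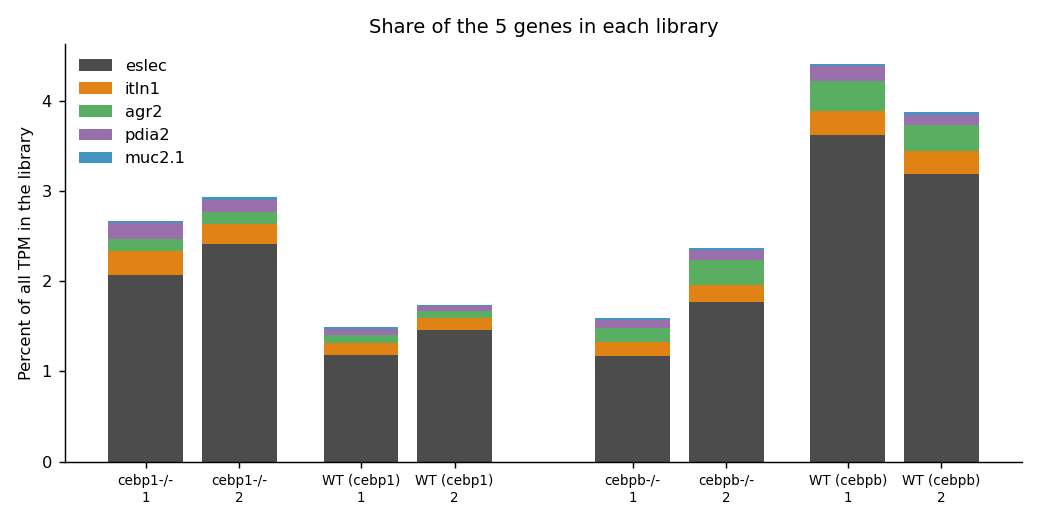
Share of all TPM (y axis, percent) taken by each of the 5 genes in the 8 libraries, stacked, with mutant libraries left of their wild type. The stacks reach 2.66% and 2.93% in *cebp1*-/-, 1.49% and 1.73% in *cebp1*+/+, 1.59% and 2.36% in *cebpb*-/- and 4.41% and 3.87% in *cebpb*+/+, and most of each stack is *eslec*.

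Ratios between 2 genes of the same library do not depend on the scaling, and 15 were formed in each table, 10 among the 5 genes and 5 to *gata2a*. With 2 libraries against 2, a ratio without overlap has an exact permutation p of 0.333, so it arises often by chance. Ratios that share a gene are not separate evidence. For the 10 ratios among the 5 genes, the share of other genes with such ratios was not computed, so their counts have no background. Of the 15 ratios of the *cebp1* table, 4 did not overlap between genotypes, and each of the 4 involved *pdia2*. The ratio of *agr2* to *pdia2* was 0.817 and 0.932 in *cebp1*-/- cells, against 1.18 and 1.33 in *cebp1*+/+ cells. The log2 difference of this ratio, -0.52, was 4.14 times the pooled SD of replicates. *Pdia2* relative to *gata2a* was 5.88 and 4.69 in *cebp1*-/- cells, against 3.82 and 3.75 in *cebp1*+/+ cells, whereas the other 4 genes had ratios to *gata2a* that overlapped between genotypes, with log2 differences between -0.12 and 0.03, and between -0.37 and 0.25 when any 1 library was left out. A ratio to *gata2a* above wild type in both mutant libraries was seen for 1 of the 5 genes and for 1.06% of all genes of the table. *Gata2a* itself was higher in the mutants (0.82 on the log2 scale as deposited), while the median over all genes was -0.901. This share among abundant genes alone was not computed. Of the 875 genes of at least 50 TPM in both tables, 17.3% had a larger deposited difference than *gata2a* and 5.83% a larger one than *pdia2*. The ratio of *eslec* to *agr2*, for instance, was 15.1 and 18.3 in *cebp1*-/- cells, against 14.2 and 19.8 in *cebp1*+/+ cells. *Pdia2* was thus higher relative to *gata2a*, *itln1*, *agr2* and *muc2.1* in both *cebp1*-/- libraries, while its ratio to *eslec* and all ratios among the other genes overlapped between genotypes. With 1 library left out, the log2 difference of *pdia2* to *gata2a* ran between 0.31 and 0.64, that of *pdia2* to *muc2.1* between 0.31 and 0.87 (both lowest without *cebp1*-/- replicate 1), and that of *itln1* to *pdia2* between -0.61 and -0.28 (nearest to 0 without *cebp1*+/+ replicate 2).

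Of the 15 ratios of the *cebpb* table, 10 did not overlap. These were the 5 ratios to *gata2a*, the 4 ratios of *eslec* to the other secretory genes, and *itln1* to *muc2.1*. For those among the secretory genes themselves, no share over all genes was computed. *Eslec* relative to *gata2a* was 19.4 and 28.3 in *cebpb*-/- cells, against 67.0 and 49.0 in *cebpb*+/+ cells. *Gata2a* itself had 600 and 624 TPM in *cebpb*-/- cells, against 540 and 651 TPM in *cebpb*+/+ cells, so its libraries overlapped. Ratios to *gata2a* below wild type in both mutant libraries were found for 5 of 5 genes and for 16% of all genes of the table. The log2 differences of the ratios to *gata2a* were -1.29 for *eslec*, -0.62 for *itln1*, -0.61 for *agr2*, -0.53 for *pdia2* and -0.39 for *muc2.1*. All stayed below 0 with any 1 library left out, but several rested on single libraries. The *pdia2* value was -0.16 without *cebpb*+/+ replicate 1 and -0.91 without *cebpb*+/+ replicate 2. The *agr2* value was -0.24 without *cebpb*-/- replicate 1, -0.38 without *cebpb*+/+ replicate 1 and -0.99 without *cebpb*-/- replicate 2. The *muc2.1* value was -0.26 without *cebpb*-/- replicate 1, and the ranges were -1.56 to -1.02 for *eslec* and -0.82 to -0.42 for *itln1*.

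*Eslec* was also lower relative to each of the other secretory genes. Its ratio to *agr2* was 7.31 and 6.35 in *cebpb*-/- cells, against 10.8 and 10.98 in *cebpb*+/+ cells, a log2 difference of -0.67 that was 6.61 times the pooled SD of replicates. The log2 difference was -0.67 to *itln1*, -0.76 to *pdia2* and -0.90 to *muc2.1*. In contrast, *itln1*, *agr2* and *pdia2* had ratios to each other that overlapped between genotypes, with log2 differences between -0.09 and -0.01. *Eslec* accounted for 73.2% and 74.7% of the TPM of the 5 genes in *cebpb*-/- cells, against 82.0% and 82.4% in *cebpb*+/+ cells, and *agr2* for 10.02% and 11.8% in *cebpb*-/- cells, against 7.62% and 7.505% in *cebpb*+/+ cells. The exact two-sided permutation p was 0.333, the smallest possible, for every ratio of either table that did not overlap, so no ratio reached 0.05.

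**Figure D4:**
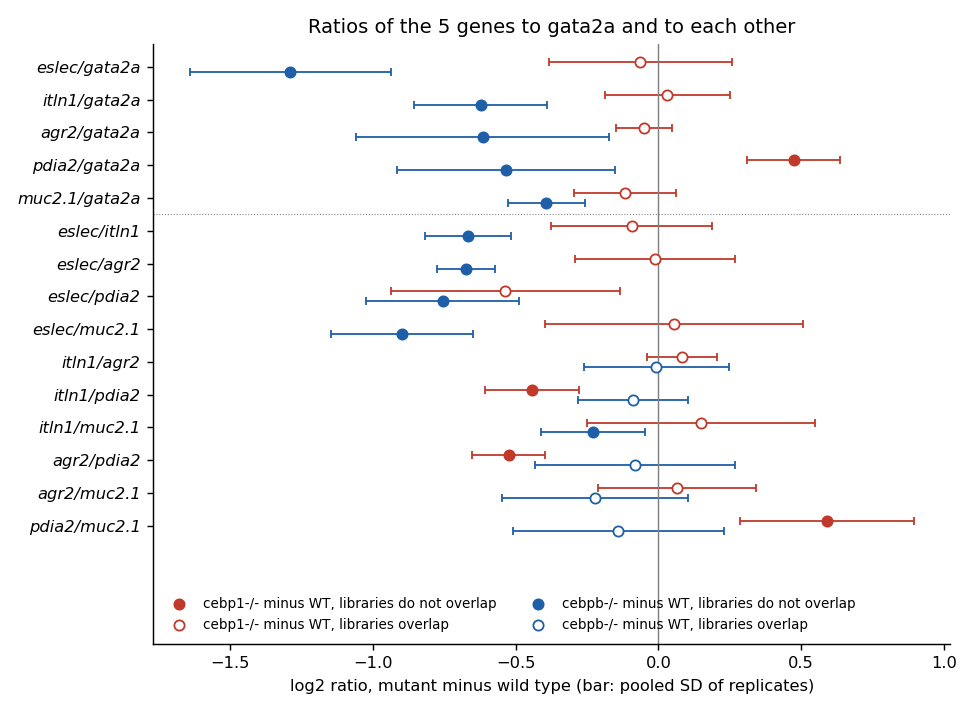
log2 of 15 ratios, mutant minus wild type (x axis), in the *cebp1* table (red) and the *cebpb* table (blue), with the pooled SD of replicates (bars). Filled points mark ratios whose libraries do not overlap between genotypes, 4 of 15 in red, all with *pdia2*, and 10 of 15 in blue, among them the 5 with *eslec*.

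Genes of the same families were read beside the 5. Of 31 lectin genes found by name prefix (intelectins, galectins, C-type lectins, collectins and the like), 28 were tested in the *cebp1* table and only *itln1* passed. Over all genes tested 1.28% rose, and 23.2% of those that averaged 50 scaled TPM or more, while most of the other lectin genes were low. The median log2 difference of the 27 others was -0.04, beside -0.06 over all genes tested. The galectin gene *lgals3b* had 121 and 114 TPM in *cebp1*-/- cells, against 121 and 72.6 TPM in *cebp1*+/+ cells (scaled log2 difference 1.38, adjusted p = 0.0944, limma). *Lgals2a*, another galectin gene, had 51.4 and 78.6 TPM in *cebp1*-/- cells, against 29.7 and 43.1 TPM in *cebp1*+/+ cells (1.86, adjusted p = 0.0764, limma). Both thus lay on the same side as *itln1* when scaled, and they were the most abundant of the other lectin genes there. In *cebpb*-/- cells *lgals2a* had 273 and 179 TPM, against 72.9 and 136 TPM in *cebpb*+/+ cells (scaled log2 difference 0.59 ± 0.41, SE), the opposite side of *itln1* there. *Lgals3b* had 0 and 18.5 TPM in *cebpb*-/- cells, against 115 and 203 TPM in *cebpb*+/+ cells (adjusted p = 0.206, limma), the same side as *itln1*. Of the 11 other lectin genes tested in the *cebpb* table, 8 were below 0, beside 50.8% of all genes tested. Their median log2 difference was -1.78, beside -0.03 over all genes tested, and none passed. Several of them were low and at 0 in *cebpb*-/- replicate 2, such as *lgals9l1* (16.8 and 0 TPM in *cebpb*-/- cells) and *clec3a* (17.1 and 0 TPM). That library had the lowest share of genes above 0, 39.3%, so this median is uncertain.

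Among 23 thiol isomerase and related genes of the endoplasmic reticulum, 22 were tested in the *cebp1* table and 3 rose: *agr2*, *pdia2* and *pdia3*, which encodes an isomerase that works on glycoproteins. This stands beside 1.28% of all genes tested and 23.2% of those that averaged 50 scaled TPM or more. The 3 were also the most abundant genes of the list in this table. *Pdia3* had 716 and 617 TPM in *cebp1*-/- cells, against 324 and 243 TPM in *cebp1*+/+ cells (log2 difference 2.31, adjusted p = 0.0254, limma). The 20 genes of this list other than *agr2* and *pdia2* had a median of 0.89, beside -0.06 over all genes. For the 875 genes of at least 50 TPM in both tables it was 0.09 as deposited, before the scaling added 1.07. In the *cebpb* table the 18 others had a median of 0.18, beside -0.03 over all genes, and none passed. There *p4hb*, the classical protein disulfide isomerase, had 1238 and 1799 TPM in *cebpb*-/- cells, against 835 and 920 TPM in *cebpb*+/+ cells, on the other side of *agr2* and *pdia2*. *Pdia3*, which rose in *cebp1*-/- cells, had 716 and 682 TPM in *cebpb*-/- cells, against 721 and 635 TPM in *cebpb*+/+ cells, and overlapped. *Prdx4*, a peroxiredoxin of the endoplasmic reticulum, had 409 and 419 TPM in *cebpb*-/- cells, against 759 and 583 TPM in *cebpb*+/+ cells, the same side as *agr2* and *pdia2*.

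*Muc2.1* was the abundant mucin gene. Of 9 mucin genes, the 8 others tested in the *cebp1* table had a median log2 difference of -0.25 and none passed, and 1 other was tested in the *cebpb* table. Of 37 genes of mucin-type O-glycosylation, 35 were tested in the *cebp1* table and 1 rose, *gcnt3*, which encodes an enzyme that branches mucin sugar chains. Over all genes tested 1.28% rose, and 23.2% of those that averaged 50 scaled TPM or more. *Gcnt3* was by far the most abundant gene of the list in this table. *Gcnt3* had 391 and 293 TPM in *cebp1*-/- cells, against 154 and 176 TPM in *cebp1*+/+ cells (log2 difference 2.103, adjusted p = 0.039, limma). It had 141 and 253 TPM in *cebpb*-/- cells, against 359 and 457 TPM in *cebpb*+/+ cells (log2 difference -1.64, adjusted p = 0.206, limma). *Gcnt3* thus lay on the same side as the 5 genes in both tables, while the medians of the list, -0.19 and -0.22, were close to those of all genes.

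Genes of products known from mammalian eosinophils were read next. Of 13 such genes in the tables, 9 could be tested in *cebp1*-/- and 6 in *cebpb*-/- cells, and none passed in either, beside 1.28% of all genes called higher in *cebp1*-/- and 0% called in *cebpb*-/- cells. *Alox5ap*, which encodes the activating protein of 5-lipoxygenase, had 67.3 and 49.4 TPM in *cebp1*-/- cells, against 42.2 and 26.3 TPM in *cebp1*+/+ cells (log2 difference 1.82, adjusted p = 0.0702, limma). It had 23.4 and 24.4 TPM in *cebpb*-/- cells, against 66.6 and 62.5 TPM in *cebpb*+/+ cells (log2 difference -1.93, adjusted p = 0.193, limma), so it lay on the same side as the 5 genes in both tables. *Ptgdsb.1*, a gene of the prostaglandin D2 synthase family, had 165 and 1163 TPM in *cebpb*-/- cells, against 26.8 and 25.1 TPM in *cebpb*+/+ cells, with a wide gap between the mutant libraries. Its levels were 89.8 and 49.1 TPM in *cebp1*-/- cells, against 135 and 62.8 TPM in *cebp1*+/+ cells. *Arg2* had 219 and 39.3 TPM in *cebpb*-/- cells, against 150 and 294 TPM in *cebpb*+/+ cells, and overlapped. *Il13* had 299 and 0 TPM in *cebpb*-/- cells, against 0 in both *cebpb*+/+ libraries.

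Of the 7 eosinophil lineage markers, all were tested in both tables. In *cebp1*-/- cells 4 rose, *gata2a*, *cxcr4b*, *xbp1* and *cebpb*, beside 1.28% of all genes and 23.2% of those that averaged 50 scaled TPM or more. The study's text does not call *xbp1* or *cebpb* a lineage marker, and it picked out *cebpb* partly because it was higher in *cebp1*-/- eosinophils. Of the others, *fcer1gl* (adjusted p = 0.0702, limma), *il1rl1* (0.179) and *ccr9a* (0.186) did not pass. The list had a median log2 difference of 1.58, beside -0.06 over all genes tested. The 875 genes that averaged 50 TPM or more in both tables had a median of 0.09 as deposited, to which the scaling added 1.07. *Cxcr4b*, the chemokine receptor that the study uses for mature eosinophils, had 702 and 512 TPM in *cebp1*-/- cells, against 195 and 115 TPM in *cebp1*+/+ cells. In *cebpb*-/- cells none passed, and the median, which includes the mutated gene *cebpb* itself (-2.09), was -0.64, beside -0.03 over all genes tested. For the same 875 genes it was 0.01 as deposited, to which the scaling added -0.55. *Cxcr4b* had 1112 and 833 TPM in *cebpb*-/- cells, against 2713 and 2581 TPM in *cebpb*+/+ cells. *Il1rl1*, the receptor gene for interleukin-33, had 377 and 384 TPM in *cebpb*-/- cells, against 45.3 and 60.7 TPM in *cebpb*+/+ cells. The lineage markers thus did not all lie on the same side in *cebpb*-/- cells.

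*Agr2* and *muc2.1* are also known from goblet cells of the intestine and *pdia2* from the exocrine pancreas in mammals, so markers of these tissues were read in the same libraries. The 15 intestine markers summed to 33.2 to 49.4 TPM in *cebp1*-/- cells, against 97.9 to 125 TPM in *cebp1*+/+ cells, and to 0.144 to 5.47 TPM in *cebpb*-/- cells, against 2.22 to 11.1 TPM in *cebpb*+/+ cells. *Fabp2* and *epcam* were listed at 0 in all 8 libraries, as *cebp1* was, and such a 0 cannot be told apart from a gene that was not counted. Of the 15, 11 were above 0 in at least 1 library of the *cebpb* table, and the goblet cell factor *spdef* reached at most 0.117 TPM in the *cebpb* table. *Atoh1b*, also on the list, had 5.16 TPM in *cebpb*-/- replicate 1 and 0 in the other libraries of that table. *Agr2* had 1596 to 3359 TPM and *muc2.1* 178 to 274 TPM in that table, where the intestine markers summed to at most 11.1 TPM. In *cebp1*+/+ cells the sum was 97.9 to 125 TPM, and *muc2.1* had 170 and 113 TPM. There *spdef* had 14.97 and 2.90 TPM and *atoh1b* 3.10 and 9.63 TPM, against 2.97 and 3.72 TPM and 4.68 and 7.37 TPM in *cebp1*-/- cells. The part of intestine cells in these levels was not tested. The 15 exocrine pancreas markers in the tables summed to 56.4 to 57.0 TPM in *cebp1*-/- cells, against 106 to 149 TPM in *cebp1*+/+ cells, and to 64.2 to 88.0 TPM in *cebpb*-/- cells, against 2.97 to 19.0 TPM in *cebpb*+/+ cells. The order of genotypes in these sums was the reverse of that of *pdia2* in both tables.

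Signal from other cells moved with genotype. The 10 epidermis markers summed to 204 to 331 TPM in *cebp1*-/- cells, against 867 to 2748 TPM in *cebp1*+/+ cells, and to 2101 to 3025 TPM in *cebpb*-/- cells, against 519 to 1010 TPM in *cebpb*+/+ cells. Of these, *icn* alone had 192 and 316 TPM in *cebp1*-/- cells, 1695 and 2119 TPM in *cebpb*-/- cells and 514 and 668 TPM in *cebpb*+/+ cells. The scaled log2 difference was below 0 for all 8 markers tested in *cebp1*-/- cells and for 1 of 8 in *cebpb*-/- cells. The pigment cell genes *tyrp1b*, *dct*, *pmela* and *tyr*, picked after their levels were seen, summed to 1879 to 2810 TPM in *cebp1*-/- cells, against 3912 to 5361 TPM in *cebp1*+/+ cells. They summed to 16467 to 26657 TPM in *cebpb*-/- cells, against 4475 to 5202 TPM in *cebpb*+/+ cells. Genes that averaged under 50 TPM took 14.2% to 14.6% of TPM in *cebp1*-/- cells, against 23.7% to 28.4% in *cebp1*+/+ cells, and 11.5% to 13.8% in *cebpb*-/- cells, against 8.16% to 8.71% in *cebpb*+/+ cells. Each of these 3 measures ran opposite to the 5 genes in both tables, and their part in the levels and shares was not tested. Neutrophil markers (10) summed to 141 to 158 TPM in *cebp1*-/- cells, against 183 to 186 TPM in *cebp1*+/+ cells, and to 164 to 215 TPM in *cebpb*-/- cells, against 333 to 464 TPM in *cebpb*+/+ cells, with *lyz* at no more than 1.47 TPM in any library. Macrophage markers (8) summed to 12.6 to 14.9 TPM in *cebp1*-/- cells, against 25.4 to 54.1 TPM in *cebp1*+/+ cells, and to 21.6 to 266 TPM in *cebpb*-/- cells, against 155 to 236 TPM in *cebpb*+/+ cells, with *mpeg1.1* listed at 0 in all 8. Erythroid markers (5 in the tables) summed to 8.45 to 10.7 TPM in *cebp1*-/- cells, against 50.4 to 56.0 TPM in *cebp1*+/+ cells, and to 5.11 to 14.0 TPM in *cebpb*-/- cells, against 8.43 to 955 TPM in *cebpb*+/+ cells, the highest value from a single library.

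The genes whose pattern was most like each of the 5 were sought among 857 other genes averaging 50 TPM or more in both tables and above 0 in all 8 libraries. Likeness was measured as the SD of the log2 ratio of 2 genes over the 8 libraries, each table centred on its own mean (6 degrees of freedom), so a low SD means that a ratio stayed nearly constant. Closest to *eslec* was *LOC110437731* (SD 0.101, beside a median of 0.719 over the 857), which the RefSeq annotation of GRCz12tu names *msmbl*, followed by the non-coding gene *si:ch211-214p16.2* (0.166) and *zgc:158852*, named *spink2.1* in RefSeq (0.198). *LOC110437731* had 875 and 902 TPM in *cebp1*-/- cells, against 485 and 689 TPM in *cebp1*+/+ cells. It had 575 and 889 TPM in *cebpb*-/- cells, against 1706 and 1548 TPM in *cebpb*+/+ cells. Its scaled log2 difference was 1.69 ± 0.31 in *cebp1*-/- cells (SE, adjusted p = 0.0532, limma) and -1.73 ± 0.31 in *cebpb*-/- cells (SE, adjusted p = 0.166, limma), and neither passed.

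*Itln1* was most like *eif4ebp1*, a regulator of translation (SD 0.0817), *eef1a1l1*, a translation elongation factor (0.0893), and *si:ch1073-376c22.1* (0.106). *Agr2* was most like *zgc:136826*, named *rps27l* in RefSeq (0.167), *ssr2*, a subunit of the translocon complex of the endoplasmic reticulum (0.174), and *calm1b*, a calmodulin gene (0.185). *Pdia2* was most like the elongation factor gene *eef2b* (0.166), *si:zfos-1425h8.1*, named *ikzf2* in RefSeq (0.183), and *pdcd4a* (0.191). *Muc2.1* was most like *actr3*, a subunit of the actin-branching Arp2/3 complex (0.11), and *nsa2* (0.162). Among the 5 genes themselves, *itln1* and *agr2* were closest to each other (0.166), and for *agr2* no other of the 862 genes compared was nearer than *itln1*. *Eslec* and *muc2.1* were the farthest apart (0.472), with 159 genes nearer to *eslec* than *muc2.1* was. These SDs are descriptions over 8 libraries that share their genotypes, with no test.

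In the RefSeq annotation of GRCz12tu, 3 of the 5 genes lie on chromosome 1. *Pdia2* and *eslec* are separated there by 3 annotated genes, and *itln1* lies on the same chromosome with 146 genes between it and *eslec*. The files were made on GRCz11, so no positions are given. The tables list 4 genes between *pdia2* and *eslec*, and none of them exceeded 7.92 TPM with the *cebp1* libraries or 0.267 TPM with the *cebpb* libraries, so the high levels of the 2 genes were not shared by the genes listed between them. RefSeq places *ifi44b* in overlap with *eslec* and *percc1* in overlap with *pdia2*; the counting is not stated to use strand, and reads from overlapping genes cannot then be told apart. *Agr2* lies on chromosome 19 and *muc2.1* on chromosome 25, beside other mucin genes. *LOC110438407*, listed next to *muc2.1* and without a name in the annotation used here, had 295 and 351 TPM in *cebp1*-/- cells, against 190 and 239 TPM in *cebp1*+/+ cells. It had 194 and 128 TPM in *cebpb*-/- cells, against 237 and 213 TPM in *cebpb*+/+ cells. Its levels differed from those of *muc2.1* by library, with 239 against 113 TPM in *cebp1*+/+ replicate 2 and 128 against 223 TPM in *cebpb*-/- replicate 2. Whether it is a mucin gene is not stated in the sources used here. If it is, reads of near-identical mucin repeats may be split between the entries, and the level of *muc2.1* is uncertain to that extent.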

How the data were processed

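RNA from about 500 sorted cells per library was amplified with a modified Smart-seq2 protocol, giving 8 libraries. The authors used STAR for alignment (GRCz11) and featureCounts for counting, and the unit they deposited is TPM, in 1 table per mutation; gene lengths and annotation are not given in the sources used here. The authors' own test, DESeq2, ran on counts.

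From the deposited TPM, libraries of a table were scaled by the median of ratios over genes above 0 in all 4 libraries that averaged 1 TPM or more. Genes averaging 1 scaled TPM or more (25203 for *cebp1*, 11478 for *cebpb*, 11360 for both) were tested on log2(scaled TPM + 1), which understates changes of low genes, with limma 3.58.1 in R 4.3.3, with a mean-variance trend, two-sided, Benjamini-Hochberg adjustment over all genes and a threshold of 0.05. A fit of all 8 libraries tested the difference between the effects. The fits were tested on simulated data with known changes: median sizes and nearly all signs were recovered, but the share of changed genes called depended on the spread simulated, and with each gene's own estimated spread the test within a table called none, so its power is uncertain. Shares and the 15 ratios per table used exact two-sided permutation tests. Ratios used TPM as deposited.

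The 5 genes, the gene lists and the tests were chosen with earlier results of these data known. Lists were matched by symbol, without *agrp*, *agrn*, *mblac1* and *mblac2*, which belong to other families. The text names the 5 genes, *gata2a*, list genes that passed (up to 4 by p) or otherwise had the highest mean TPM (up to 3), and the 3 genes most like each of the 5, of which 1 is not reported here; *prdx4*, *il1rl1*, *LOC110438407*, the pigment genes, the genes listed between *pdia2* and *eslec*, and single markers of other tissues were named after their values were seen. Identifiers were paired with RefSeq names of GRCz12tu, while *eslec* was paired with *si:dkeyp-75b4.10* through the study. Alternatives covered the pseudocount, filter, scaling, trend, a replicate block and leaving out each library. Figures were drawn with matplotlib 3.10.9.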

Additional observations from a re-analysis of the deposited data

Results flagged for a closer look

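For each of the 5 genes the effect of *cebp1* loss and the effect of *cebpb* loss differed on scaled TPM when the difference itself was tested. The difference, on the log2 scale of scaled TPM with limma over 8 libraries, was 3.63 for *eslec*, 3.05 for *itln1*, 2.96 for *agr2*, 3.41 for *pdia2* and 2.66 for *muc2.1*, with adjusted p-values of 0.0022, 0.0023, 0.0057, 0.0022 and 0.0058. Both *cebp1*-/- libraries were above, and both *cebpb*-/- libraries below, their wild type libraries for all 5 genes. On TPM as deposited *agr2* (1.34, adjusted p = 0.0644, limma) and *muc2.1* (1.05, adjusted p = 0.155, limma) did not pass, and none of the 5 passed when divided by *gata2a* or without a mean-variance trend. The median of this difference over the 11360 genes tested was 0.435, most of them less abundant than the 5. The scaling raised the difference of every gene, by adding 1.07 to the *cebp1* and -0.55 to the *cebpb* effect of abundant genes, with smaller shifts for low genes. Among the 875 genes with at least 50 TPM in both tables, the deposited medians of these effects were 0.09 and 0.01.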

How the results depend on the processing

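Directions held for the 5 genes in every alternative fit but 1: divided by *gata2a*, the *cebp1* differences were -0.063 for *eslec*, -0.051 for *agr2*, -0.12 for *muc2.1*, 0.031 for *itln1* and 0.47 for *pdia2*, and none passed. The following values are log2 differences in the order *eslec*, *itln1*, *agr2*, *pdia2*, *muc2.1*. In the *cebp1* table none passed without a filter or without a trend (1.83, 1.93, 1.84, 2.37 and 1.77 in both), on TPM as deposited (0.76, 0.86, 0.77, 1.30, 0.71) or scaled on genes of at least 50 TPM (0.68, 0.78, 0.69, 1.22, 0.62). Without mitochondrial and microRNA genes *itln1* (0.90), *agr2* (0.81) and *muc2.1* (0.74) did not pass, while *eslec* and *pdia2* did. Leaving out 1 library at a time gave 1.54 to 2.16, 1.73 to 2.18, 1.74 to 2.01, 2.17 to 2.63 and 1.65 to 1.93, all without a call, and 0 genes called in all.

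The *cebp1* table had 355 calls, 323 higher and 32 lower. It had 212 with a pseudocount of 0.1, 724 with a filter at 5 scaled TPM, and 0 without a filter or a trend. The balance turned to lower genes on TPM as deposited, with 45 calls (16 higher, 29 lower), and scaled on genes of at least 50 TPM, with 40 (11 higher, 29 lower). It did so too divided by *gata2a*, with 14106 (52 higher, 14054 lower), and without mitochondrial and microRNA genes, with 169 (40 higher, 129 lower). The *cebpb* table had 0 calls, 10 with a pseudocount of 5, 12 with a filter at 5 scaled TPM and 668 in the fit of 8 libraries, where *eslec* (-1.79) and *itln1* (-1.13) passed. Leaving out 1 library gave 0 calls there.

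The difference between the effects did not pass when divided by *gata2a* (1.23, 0.65, 0.56, 1.01, 0.27) or without a trend (3.63, 3.05, 2.96, 3.41, 2.66). *Agr2* and *muc2.1* also missed on TPM as deposited (1.34, 1.05) and scaled on genes of at least 50 TPM (1.57, 1.28). All 5 passed with any 1 of the 8 libraries left out, at 3.23 to 3.99, 2.81 to 3.31, 2.47 to 3.43, 3.14 to 3.74 and 2.40 to 2.89. Calls over all genes numbered 776, with 513 as deposited (106 higher, 407 lower), 441 scaled on genes of at least 50 TPM, 1557 divided by *gata2a*, 94 without a trend and 231 to 1694 with 1 library left out. The summed share of the 5 genes differed by 0.80 (log2) in *cebp1*-/- cells and by 0.58 against genes of at least 50 TPM.

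Deviations of same-numbered libraries correlated over the genes tested at 0.008 (*cebp1*) and -0.019 (*cebpb*). These values cannot decide whether libraries of the same number were collected or processed together, because low and noisy genes weigh in them. With a replicate block, *eslec* passed in the *cebpb* table (-1.79), which then had 29 calls, the *cebp1* table had 387 calls with all 5 genes among them, and the difference had 414. The causes of these changes were not tested.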
